A study of Mus musculus with 6 samples.

Results

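The genes that encode the proteins of the mitochondrial ribosome were followed in 6 mouse triple-negative breast cancer (TNBC) tumors. They were chosen by name, as every gene whose symbol starts with Mrpl or Mrps followed by a digit, which gave 68 of the 13730 genes in the count table. Tumors had been raised from C0321 cells, a mouse TNBC line that came from a mouse lacking Lunatic Fringe (Lfng) on the FVB background. C0321 cells in Matrigel had been implanted in the mammary fat pad of syngeneic female FVB mice aged 6 to 10 weeks. Once a mass could be felt, mice of the SS group received sulindac sulfide (SS) by mouth at 60 mg/kg each day for 14 days, and 3 of their tumors were sequenced beside 3 Control tumors from mice given no SS. SS is the active metabolite of the anti-inflammatory drug sulindac and modulates γ-secretase, the protease that releases active Notch. The labels call the drug a sulfate and the design text calls the control saline, whereas the methods name sulindac sulfide and vehicle. C0321 is a single cell line, so the tumors of both groups share its genotype, and the labels number the tumors without saying how many tumors each mouse gave. The p-values therefore measure the spread between these tumors only.

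Mitochondria keep a small genome that encodes core subunits of the respiratory chain, and they translate it on their own ribosomes. The RNA of these ribosomes comes from the mitochondrial genome, whereas every protein is encoded in the nucleus, made in the cytosol and imported. Like its bacterial relative, the mitochondrial ribosome has a large subunit, which forms peptide bonds, and a small subunit, which reads the mRNA. A part of its proteins has counterparts in bacteria and the rest was added in the course of mitochondrial evolution. Cells that rely on oxidative phosphorylation need these ribosomes, and the genes are usually transcribed together with other nuclear genes for mitochondrial proteins. Nuclear respiratory factor 1 (NRF1), GA-binding protein (GABPA) and YY1 are the transcription factors best known for this control.

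The table named 45 proteins of the large subunit and 22 of the small one. Of these, 25 of the large and 12 of the small subunit were listed as having bacterial counterparts, and 20 and 10 as mitochondria-specific. The remaining gene, Mrps36, carries the name of a small subunit protein but encodes a component of the 2-oxoglutarate dehydrogenase complex. Mrpl23, Mrpl30, Mrpl35, Mrpl36, Mrpl41, Mrpl55, Mrps10, Mrps12, Mrps17 and Mrps28 were not analysed here. The 68 genes lay on 17 chromosomes, with at most 10 on a single one, chromosome 11.

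Promoters of these genes were searched for the motifs of these factors, as a description with no test. The RefSeq promoter table (GRCm38.p6, from 250 bases before to 50 bases after each start) held 66 promoters of 60 of the 68 genes. Mrpl4, Mrpl13, Mrpl15, Mrpl19, Mrpl38, Mrpl54, Mrps34 and Mrps35 had no entry. The GABPA motif CCGGAAG, searched on both strands as all motifs were, occurred in 25 of the 66 promoters, or 37.9%, against 8.86% of all 32851 promoters and 16.7% of those of the genes tested here. The NRF1 motif GCATGCGC occurred in 8, or 12.1%, against 2.71% of all promoters and 4.96% of those of the genes tested. Its full palindrome, in which a further GC precedes these letters, occurred in 3, or 4.55%, against 0.971% and 2.01%. The YY1 motif AAGATGGCG occurred in 6 promoters, or 9.09%, against 1.40% and 2.87%. The E-box CACGTG, a MYC site, stood at 9.09%, against 7.15% and 9.95%, and its 6 promoters belonged to only 4 genes. A match to the GABPA, the full NRF1 or the YY1 motif was present in 32 of the 60 genes. This combined count was not made for other genes, so the shares of single motifs above cannot be set beside it. These matches are descriptions of the letters and say nothing of binding in the tumors. The following stretches of 30 bases show the 3 NRF1 palindromes and 4 of the GABPA matches, the latter in genes described below. They are given 5′ to 3′ on the strand of the gene, with the matched motif in capitals (in the NRF1 palindromes, its GCATGCGC part).
Mrpl9: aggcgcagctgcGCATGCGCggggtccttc
Mrpl32: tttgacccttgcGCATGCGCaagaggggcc
Mrpl39: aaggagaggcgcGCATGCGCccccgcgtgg
Mrpl43: caaccccggaaCCGGAAGtcaccggttagt
Mrpl52: caagatgtcggCTTCCGGttttcccggcag
Mrpl58: aagagtgagcaCCGGAAGcggtcctgggag
Mrps22: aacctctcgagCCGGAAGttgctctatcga

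The palindromes began 28 bases before the RefSeq start in Mrpl9 (chr3:94443298-94443327, plus strand), 87 bases before it in Mrpl32 (chr13:14613105-14613134, minus strand) and 125 bases before it in Mrpl39 (chr16:84735350-84735379, minus strand). The GABPA matches began 12 bases before the start in Mrpl43 (chr19:45006436-45006465, minus strand), 47 in Mrpl52 (chr14:54426851-54426880, plus strand), 2 in Mrpl58 (chr11:115403739-115403768, plus strand) and 11 in Mrps22 (chr9:98601672-98601701, minus strand). In Mrpl52 the match is the reverse complement. A protein-coding gene on the other strand started within 500 bases of 22 of the 68 genes, or 32.4%, against 11.8% of all protein-coding genes of the table. In a single pair both neighbors belonged to the set. Mrpl46 and Mrps11 on chromosome 7 are transcribed away from each other. In the deposited coordinates their starts are 41 bases apart, at positions 78783090 and 78783131, whereas in the GENCODE models, which gave the counts of neighbors, the genes overlap at their starts.

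The levels of these genes were below those of the median gene in this table, by less once length was taken into account. CPM, the counts scaled to the size of the library with TMM factors, had a median of 1.59 over the 68 genes against 7.54 over all genes, and 22 of the 68, or 32.4%, averaged under 1 CPM against 22.9% of all genes. A further comparison was made per kb of coding length, so that genes of different length can be set side by side. The median level was 3.09 CPM per kb for the mitochondrial ribosomal proteins and 5.50 over all genes with a known length. It was 13.7 for 69 nuclear-encoded subunits of the respiratory chain, a list that here includes those of ATP synthase. For the 82 of 84 cytosolic ribosomal proteins with a known length it was 354. The genes also differed widely among themselves, from 0.139 to 184 CPM per kb, although the proteins are mostly present in 1 copy per ribosome. The middle 50% of them covered a 6.28-fold range, against 13.8-fold for the cytosolic ribosomal proteins and 28.1-fold for the respiratory chain.
These are levels as the table holds them: B2m, which encodes the light chain of MHC class I and is abundant in most cells, stood at between 1.66 and 3.85 CPM in the 6 libraries.

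**Figure D1:**
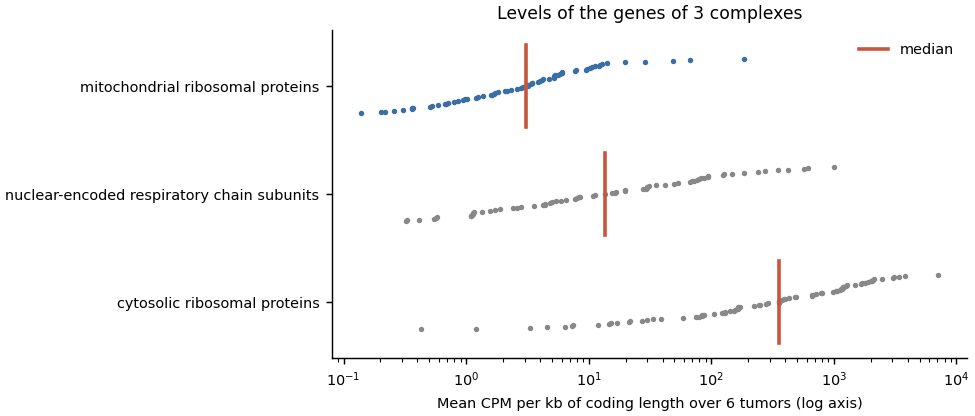
Mean level of each gene over the 6 tumors in CPM per kb of coding length, on a log axis, for 3 groups of genes, where each point is a gene and the red bar is the median of its group. The mitochondrial ribosomal proteins have a median of 3.09, and a single gene, at 184, stands apart from the rest.

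The highest of them was Mrpl43, a mitochondria-specific protein of the large subunit (chr19:45005014-45006443, minus strand, mm10). It stood at 83.2, 96.7 and 89.7 CPM in Control tumors 1 to 3 and at 88.6, 95.1 and 72.2 CPM in SS tumors 1 to 3. The groups overlapped, although the lowest value was that of SS tumor 3. Mrpl43 alone made up 26.0% of the summed CPM of the 68 genes. Its exons overlap those of Twnk, the mitochondrial DNA helicase, on the other strand. Twnk stood at 14.6 to 22.9 CPM. The libraries were stranded, but the sources used here do not state whether counting used the strand, so reads from the shared stretch cannot be assigned with certainty. Exons of 19 of the 68 genes overlap a protein-coding gene on the other strand in this way. Of the genes described below, these include Mrpl14, Mrpl21, Mrpl27, Mrpl46, Mrpl47, Mrpl49, Mrps11 and Mrps25.

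Next by level per kb were Mrps18c, Mrpl52, Mrpl27 and Mrps25. Mrps18c belongs to a family of 3 paralogs related to the bacterial protein S18. Mrps18c takes its place in the small subunit and was listed as conserved, whereas Mrps18a sits in the large subunit and Mrps18b elsewhere in the small one, and both were listed as mitochondria-specific by their position. Mrps18c was at 31.9, 23.3 and 30.9 CPM in Control and 27.7, 29.2 and 28.8 CPM in SS tumors. Mrps18b, by contrast, was at 4.35, 2.90 and 1.76 CPM in Control and 2.98, 2.86 and 2.87 CPM in SS tumors. Mrps18a was the lowest of the family, at 1.03, 2.11 and 1.40 against 1.96, 1.67 and 1.69 CPM. All 3 paralogs overlapped between the groups, and per kb of coding length Mrps18c (66.7 CPM per kb) stood far above Mrps18b (3.88) and Mrps18a (2.79). Mrpl52 averaged 17.2 ± 2.44 CPM in Control and 18.2 ± 2.47 CPM in SS tumors (SD, n = 3). Mrpl27, a protein close to the site of peptide bond formation, averaged 13.0 ± 2.30 and 12.7 ± 3.51 CPM. Mrps25 averaged 10.4 ± 2.69 and 10.1 ± 4.54 CPM, and its lowest tumor, SS tumor 3 at 5.66 CPM, and its highest, SS tumor 1 at 14.7 CPM, were in the same group.

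The lowest 3 by mean CPM, not set against length, were Mrps23, Mrpl51 and Mrps35. Mrps23 had 0, 5 and 5 counts in Control and 0, 2 and 0 counts in SS tumors. Mrpl51 had 1, 3 and 1 against 6, 0 and 0 counts. Mrps35 had 2, 1 and 0 against 7, 0 and 1 counts. These are at the floor of the libraries, where 3 counts correspond to between 0.123 and 0.354 CPM, and no difference was detectable at this depth. In all, 9 of the 68 genes had at least 1 tumor with 0 counts. The plot of each gene in the 6 tumors shows how the spread widens as the level falls.

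**Figure D2:**
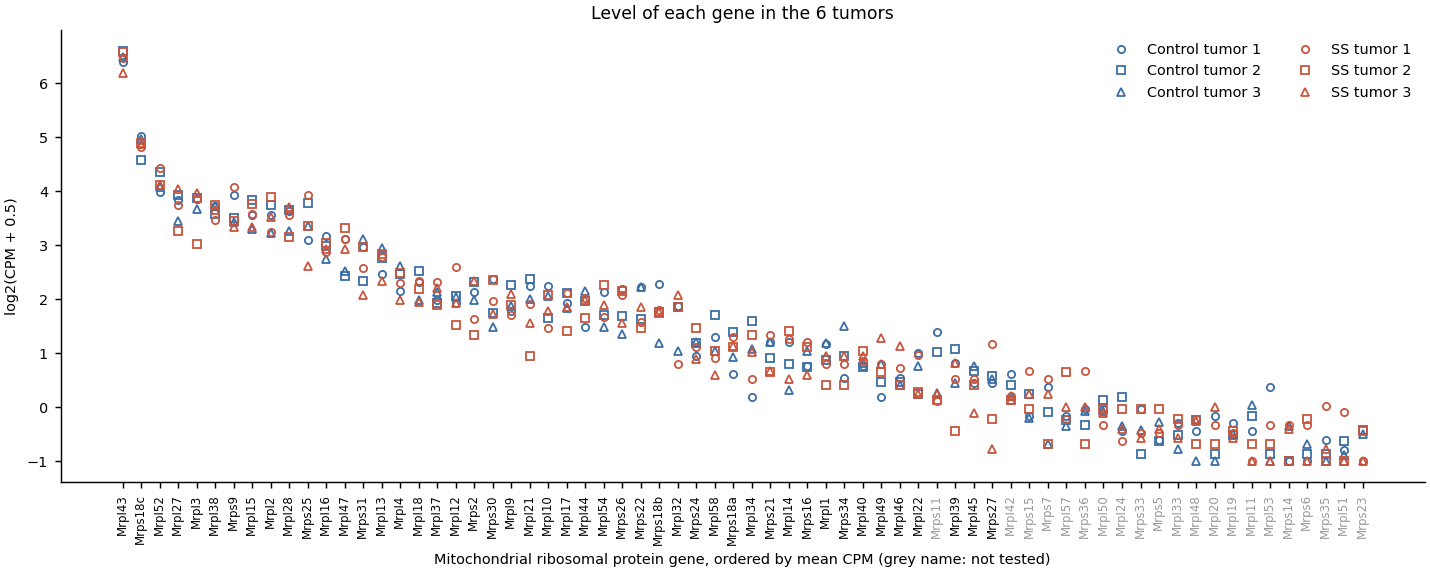
Level of the 68 genes in each tumor as log2(CPM + 0.5), ordered by mean CPM, with Control tumors in blue, SS tumors in red and a symbol for each tumor number. The symbols of both groups mix along the whole range, Mrpl43 lies above all others, and the 21 genes named in grey were too low to be tested.

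The first comparison asked whether SS moved the whole set. Summed over the 68 genes, the level was 346, 354 and 326 CPM in Control and 350, 335 and 310 CPM in SS tumors. The groups overlapped and the means, 342 ± 14.7 and 332 ± 20.1 CPM (SD, n = 3), differed by less than 1 SD. The large subunit genes summed to 257, 279 and 244 CPM against 260, 258 and 241 CPM, and the small subunit genes to 88.7, 74.7 and 81.3 against 88.5, 76.7 and 68.6 CPM. The ratio of large to small subunit ran from 2.90 to 3.74 in Control and from 2.94 to 3.51 in SS tumors, again with overlap. Mrpl43 weighs heavily in these sums. Without it the large subunit averaged 170 ± 14.5 CPM in Control and 168 ± 4.16 CPM in SS tumors (SD, n = 3). All genes of the set without Mrpl43 averaged 252 ± 14.4 and 246 ± 12.9 CPM. In bulk tumors, fewer cells of a type and less RNA per cell cannot be told apart.

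No single gene of the set passed the test. Of the 68 genes, 47 had enough counts to be tested among 10902 genes. By the quasi-likelihood F-test of edgeR, adjusted after Benjamini and Hochberg, 0 had an adjusted p under 0.05, as was true of all genes (0%). At an unadjusted p under 0.05 the count was again 0 of 47, whereas 6.36% of all genes tested passed. DESeq2 and limma-voom each gave 0 of 47 on both counts. Over all genes tested, DESeq2 gave an adjusted p under 0.05 for 35 genes outside the set, and limma-voom for 0. Of the 47, 18 were higher and 29 lower in SS tumors. Their log2 fold changes ran from -0.78 to 0.62 with a median of -0.039, against -0.0013 over all genes tested. The Control and SS tumors did not overlap in 3 of the 47, Mrpl21, Mrpl58 and Mrpl40, whereas this was so for 12.9% of all genes.

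The test bounded the change mainly in the abundant genes of the set. The 95% interval of the fold change lay within 2-fold in 20 of the 47 (62% of all genes tested) and within 1.5-fold in 7 (34.4% of all genes), which were Mrpl15, Mrpl16, Mrpl28, Mrpl38, Mrpl43, Mrpl52 and Mrps18c. For Mrpl43 the log2 fold change was -0.08, with an interval from -0.38 to 0.23, and for Mrps18c it was -0.01, with an interval from -0.38 to 0.36. The 11 genes above 10 CPM lay between -0.12 and 0.08. For the 16 tested genes under 2 CPM the standard error alone ran from 0.43 to 0.89. Their intervals all reached beyond 2-fold at this depth, and the median standard error of the set was 0.38 against 0.24 for all genes.

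**Figure D3:**
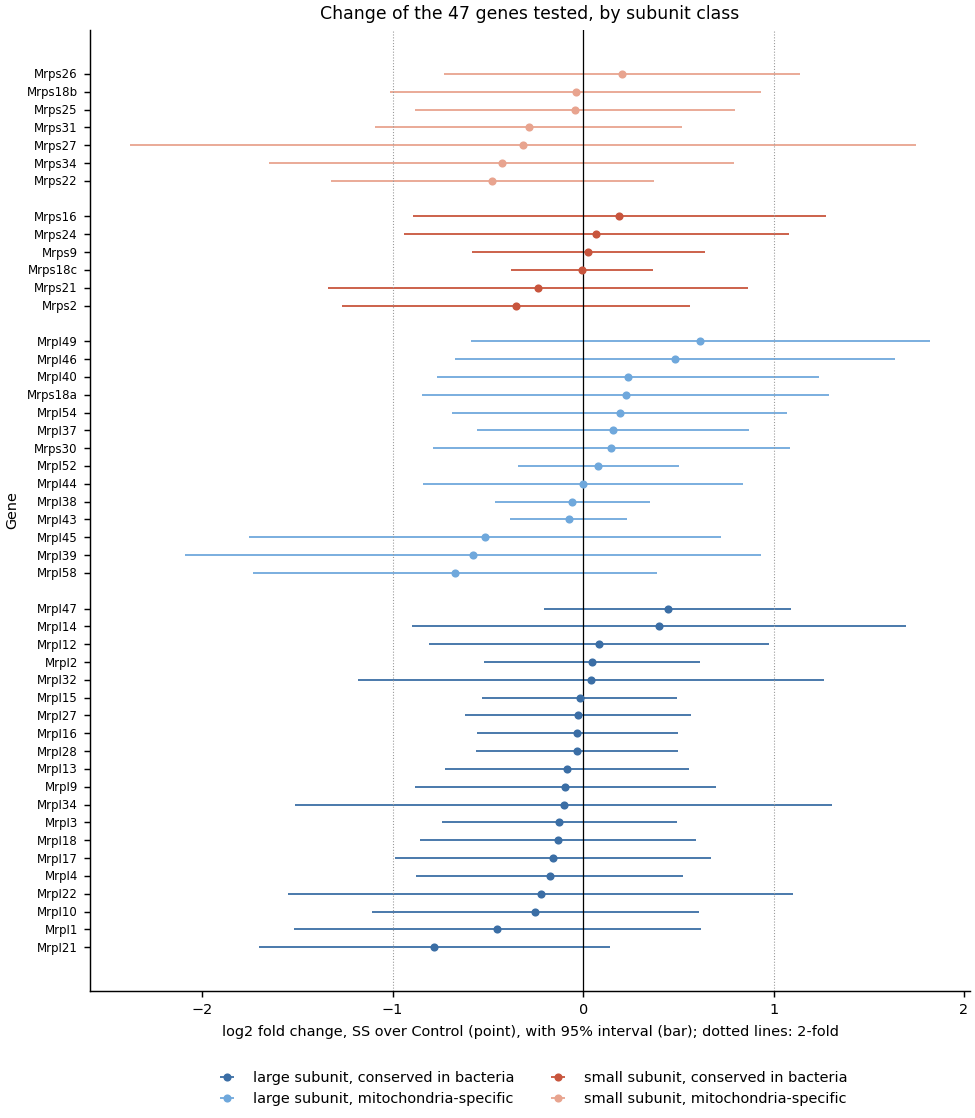
log2 fold change of SS over Control for the 47 genes tested, with its 95% interval, in 4 classes of subunit proteins; dotted lines mark a 2-fold change. Every interval includes 0, and those of the lowly expressed Mrps27 and Mrpl39 extend beyond 2-fold on the lower side.

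Among the 34 tested proteins of the large subunit, the 20 with bacterial counterparts had a median log2 fold change of -0.09, with 5 higher and 15 lower. Mrpl21, the counterpart of the bacterial protein L21, had the smallest p of the set. It stood at 4.27, 4.67 and 3.49 CPM in Control and 3.27, 1.43 and 2.45 CPM in SS tumors. Every SS tumor was below every Control tumor, though SS tumor 1 was close to Control tumor 3. The log2 fold change was -0.78 ± 0.40 (SE), and edgeR gave an unadjusted p of 0.0856, or 0.792 after adjustment. Its exons overlap the start of Ighmbp2 on the other strand. Mrpl1, a protein of the L1 stalk, which guides tRNA out of the ribosome, was at 1.74, 1.33 and 1.76 against 1.23, 0.835 and 1.44 CPM, with overlap.

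In the other direction, Mrpl47, the counterpart of the bacterial protein L29 at the tunnel exit, was at 8.14, 4.92 and 5.25 CPM in Control and 8.20, 9.54 and 7.10 CPM in SS tumors. The groups overlapped through Control tumor 1, and the log2 fold change was 0.44 ± 0.28 (SE), with an adjusted p of 0.843 in edgeR. Exons of Mrpl47 overlap those of Actl6a and Ndufb5 on the other strand. Mrpl14 was at 1.82, 1.23 and 0.739 CPM in Control and at 1.89, 2.15 and 0.930 CPM in SS tumors, with overlap. Mrpl12, which is present in several copies on the stalk that recruits translation factors and also binds the mitochondrial RNA polymerase, was at 3.32, 3.69 and 3.61 CPM in Control tumors. Its SS tumors spread on both sides of these, at 5.52, 2.38 and 3.30 CPM, and the log2 fold change was 0.08 ± 0.38 (SE). Mrpl34, the counterpart of the bacterial protein L34, varied within both groups, from 0.632 to 2.51 CPM in Control and from 0.943 to 2.03 CPM in SS tumors.

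The 14 tested mitochondria-specific proteins of the large subunit had a median of 0.11, with 9 higher and 5 lower. Mrpl58, also known as Ict1, is a peptidyl-tRNA hydrolase that frees stalled ribosomes and is built into the large subunit. It was at 1.98, 2.75 and 1.56 CPM in Control and 1.38, 1.55 and 1.01 CPM in SS tumors. Control tumor 3 and SS tumor 2 nearly met, and the log2 fold change was -0.67 ± 0.46 (SE) at an adjusted p of 0.860 in edgeR. Mrpl40 was the only gene of the 47 with all SS tumors higher (6.51% of all genes tested), at 1.31, 1.55 and 1.44 CPM against 1.19, 1.18 and 1.27 CPM. The gap was narrow and the log2 fold change 0.23 ± 0.43 (SE). Mrpl49 averaged 0.916 ± 0.301 CPM in Control and 1.42 ± 0.463 CPM in SS tumors, and Mrpl46 averaged 0.885 ± 0.0639 and 1.23 ± 0.432 CPM (SD, n = 3). Both overlapped between groups. Mrpl45, the protein that anchors the ribosome to the inner membrane, was at 0.869, 1.08 and 1.19 CPM in Control and 0.943, 0.835 and 0.423 CPM in SS tumors, with overlap. Mrpl39 varied most of the large subunit proteins tested, and its lowest value was in SS tumor 2, at 0.238 CPM or 2 counts.

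Of the small subunit, 13 proteins were tested. The 6 with bacterial counterparts had a median log2 fold change of 0.01, with 3 in each direction. The 7 mitochondria-specific ones had a median of -0.29, with 6 lower, and a median standard error of 0.40. None of these 7 passed an unadjusted p under 0.05 in edgeR (6.36% of all genes tested). None separated the groups either (12.9% of all genes tested). Over all genes tested, 5433 were higher and 5469 lower. Mrps22 was the small subunit protein with the smallest p, at 4.19, 2.60 and 4.19 CPM in Control and 2.47, 2.27 and 3.13 CPM in SS tumors. SS tumor 3 overlapped Control tumor 2, and the log2 fold change was -0.48 ± 0.37 (SE) at an adjusted p of 0.873 in edgeR. Mrps27, a protein with pentatricopeptide repeats, which bind RNA, had the largest spread of the 47 genes tested, with a coefficient of variation of 69.2%. Its 3 Control tumors were alike at 0.869, 0.983 and 0.944 CPM, whereas the SS tumors were at 1.74, 0.358 and 0.0845 CPM, the last of which was a single count.

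Of the 21 genes that were too low to be tested, 3 did not overlap between groups. Mrps11, the neighbor of Mrpl46, missed the filter narrowly and had 27, 31 and 17 counts in Control against 8, 5 and 8 counts in SS tumors. In CPM this was 2.13, 1.52 and 0.698 against 0.581, 0.596 and 0.676, so that Control tumor 3 lay close to the SS tumors. Without the filter, edgeR gave it a log2 fold change of -1.21 ± 0.64 (SE) and an adjusted p of 0.828. Its partner Mrpl46 had a log2 fold change of 0.48, which was 0.18 without SS tumor 3. In the GENCODE models the exons of both genes overlap. Mrpl11, a protein of the stalk base, had 3, 8 and 13 counts in Control and 0, 1 and 0 in SS tumors, and Mrpl42 had 13, 17 and 16 against 9, 5 and 7. Of all genes that were not tested, 9.16% separated the groups in this way, 259 of 2828. Mrps36 was not tested and overlapped, with 6, 6 and 11 against 15, 1 and 6 counts.

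In 7 of the 68 genes the table split the counts between 2 RefSeq transcripts. None of the 50 member transcripts tested out of 75 passed an unadjusted p under 0.05 in edgeR, where 5.58% of all transcripts did, and the smallest was 0.0779. In 3 of the 7 genes the split repeated itself. Mrps2 gave NM_001166031 79.6% of its counts in 5 of the 6 tumors, equal within 0.01 percentage points, and 19.3% in SS tumor 3. Mrpl21 gave NM_001347420 82.6% in 4 tumors, against 98.0% and 90.8% in Control tumors 1 and 2, and Mrps36 gave NM_001190264 60.2% in 3 tumors. In these tumors the transcript values were therefore a fixed share of the gene's counts. In Mrpl2, a core protein near the peptidyl transferase center, NM_001316742 held 78.2% of the counts in Control tumor 1 and between 4.17% and 21.2% in the other 5 tumors. Mrpl15, where the split varied from tumor to tumor, gave NM_001177658 86.3%, 72.1% and 66.0% in Control and 51.0%, 78.8% and 42.3% in SS tumors, with overlap.

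**Figure D4:**
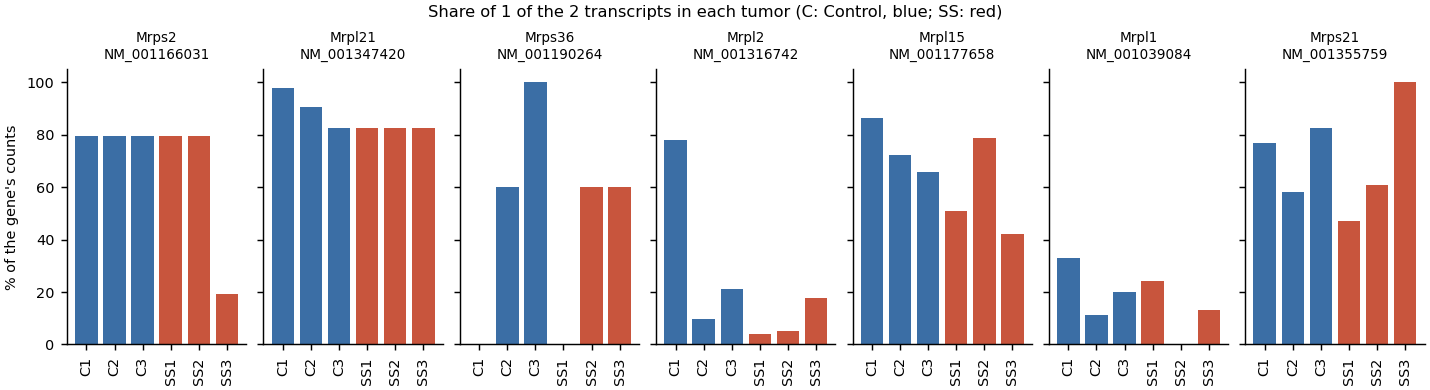
Share of the gene's counts given to 1 of its 2 transcripts in each tumor, for the 7 genes with 2 transcripts, with Control tumors in blue and SS tumors in red. The share in Mrps2 is the same in 5 tumors and 19.3% in SS tumor 3, and that in Mrpl2 is high in Control tumor 1 only.

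Other genes of mitochondrial translation and its supply were read from lists. Dap3 and Ptcd3, small subunit proteins under other names, were tested and did not pass. Dap3 was at 28.1, 30.9 and 23.0 CPM in Control and 24.6, 23.6 and 22.2 CPM in SS tumors. Of the translation factors, 0 of 13 tested passed an unadjusted p under 0.05. The smallest p, 0.0541 in edgeR, was that of Mtrf1, a release factor, at 1.74, 1.92 and 1.07 CPM in Control and 0.218, 1.07 and 0.338 CPM in SS tumors, where the highest SS tumor just reached the lowest Control tumor. Of the mitochondrial aminoacyl-tRNA synthetases 1 of 16 passed, a share near the 6.36% of all genes tested. This was Lars2, which charges leucine tRNA, at 11.6, 14.5 and 11.7 CPM against 17.6, 19.9 and 14.5 CPM (unadjusted p = 0.0464, adjusted p = 0.771 in edgeR). None of 17 assembly factors and none of 12 genes of mitochondrial transcription and RNA stability passed. Among 14 regulators of mitochondrial biogenesis 1 passed, again a share near that of all genes. This was Myc, with 32.9, 39.9 and 36.0 CPM in SS tumors against 41.5, 44.3 and 49.2 CPM in Control tumors (unadjusted p = 0.0461, adjusted p = 0.771). Ranges of the list medians were narrow, from -0.15 for the 2 subunits with other names to 0.10 for the assembly factors.

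The respiratory chain and the cytosolic ribosome were set beside the mitochondrial ribosome because its products enter the former and because the latter does the same work in the cytosol. Of the 54 tested subunits of the respiratory chain, 31 were higher and 23 lower with a median log2 fold change of 0.033, and 2 passed an unadjusted p under 0.05. Of the 81 tested cytosolic ribosomal proteins, 67 were lower with a median of -0.14, and 15 lower and 1 higher passed an unadjusted p under 0.05, against 3.16% of all genes lower and 3.19% higher. None passed adjustment. The groups did not overlap in 28 of the 81, of which 27 were lower, whereas 6.4% of all genes were so in the lower direction. Their summed level was 36632, 36658 and 41069 CPM in Control and 33768, 33617 and 35543 CPM in SS tumors, so that all SS tumors were lower. The mitochondrial set amounted to 0.946%, 0.966% and 0.793% of this sum in Control and to 1.04%, 0.997% and 0.872% in SS tumors, which overlapped. Whether the mitochondrial and cytosolic sets moved differently was not tested. Some markers of other cells also differed between the groups. Of 4 erythroid markers, 3 were lower in SS tumors at an unadjusted p under 0.05 (adjusted p = 0.771 for each in edgeR). The 4 summed to 2217, 946 and 1042 CPM in Control and 457, 1007 and 718 CPM in SS tumors, which overlapped, with Control tumor 1 far above the rest. Control tumor 1 also had the highest sums of adipocyte markers, 57.6 CPM against 1.40 to 29.0 CPM in the other tumors, and of T cell markers, 47.8 against 4.31 to 20.8 CPM. Only 2 of the 7 T cell markers were measured, and Cd3e alone made up 45.8 of the 47.8 CPM. The 5 dendritic cell markers measured of 7 summed to 51.8 to 80.5 against 93.6 to 178 CPM, a difference carried by Itgax alone (edgeR, unadjusted p = 0.0010, adjusted p = 0.679). Zbtb46 and Ccr7 had log2 fold changes of -0.23 and -0.028, Flt3 and Xcr1 were too low to be tested, and the median of the list was -0.028. The epithelial marker Krt18 was lower in every SS tumor, at 70.0, 59.5 and 61.9 CPM against 91.8, 98.1 and 80.4 CPM (edgeR, unadjusted p = 0.0039, adjusted p = 0.760). It was the only 1 of 6 epithelial markers at an unadjusted p under 0.05, Krt8 had a log2 fold change of -0.096 and Cdh1 of 0.41, the low Epcam was also higher on average in SS tumors (unadjusted p = 0.118 in edgeR), and the sums of the 6 overlapped, at 508 to 702 against 493 to 612 CPM. Their part in the values of either ribosome was not tested.

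**Figure D5:**
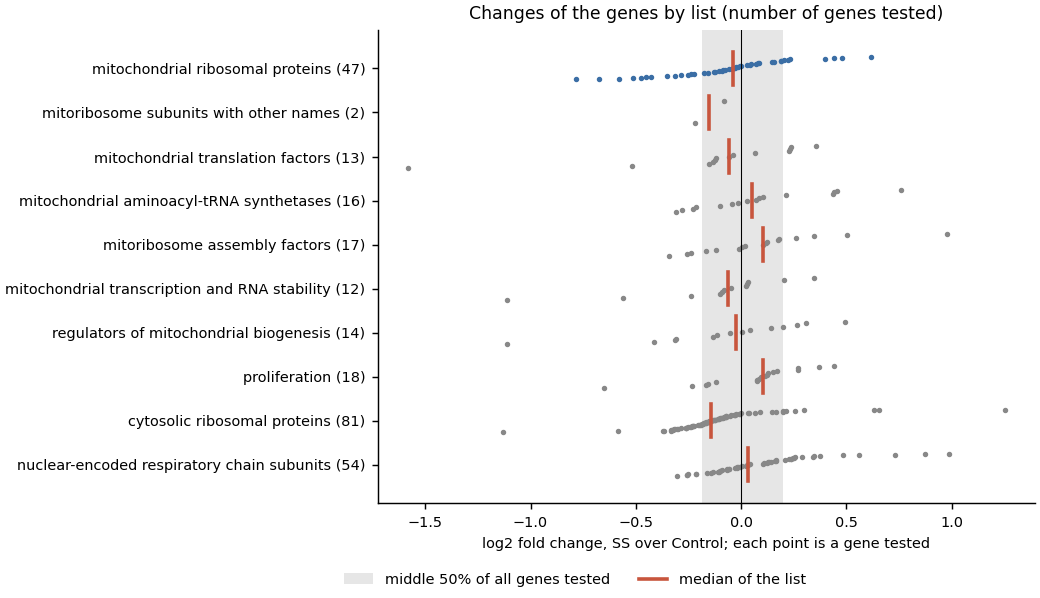
log2 fold change of SS over Control for each gene tested in 10 lists, with the median of each list as a red bar and the middle 50% of all genes tested in grey. The 47 mitochondrial ribosomal proteins are centered near 0, with a median of -0.039, whereas the median of the 81 cytosolic ribosomal proteins is -0.14.

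As a check on the tumors, total counts per library were between 8468948 and 24441553, the smallest being SS tumor 2, in which 30 of the 68 genes had fewer than 10 counts, against 16 in Control tumors 2 and 3. Lfng was read at 4.65 to 6.40 CPM in spite of the deletion in the source of the line, so that it does not check the labels of these tumors. Of the epithelial markers Krt8 and Krt18 were present in all tumors and Epcam was low, at 0.041 to 2.98 CPM, whereas the mesenchymal marker Vim stood at 5875 to 8620 CPM. The summed CPM of 7 skeletal muscle markers was 5610, 11584 and 1518 in Control and 380, 23636 and 13049 in SS tumors, and its part in the values above was not tested.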

How the data were processed

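RNA of 6 C0321 tumors, 3 Control and 3 SS, was read in pairs of 75 nucleotides from stranded, polyadenylated libraries. The authors deposited estimated counts for 20648 RefSeq transcripts without normalization, from which entries of very low expression had been removed, so that each transcript held at least 10 counts over the 6 tumors. The submitters' processing notes name CASAVA 1.8.1, Bowtie2 2.2.5, STAR 2.5.3a and mm10. The counting tool and its use of strand are not given in the sources used here. Counts were summed by gene symbol and rounded, which gave 13730 genes, after 21 symbols stored as dates had been restored. CPM used TMM factors, and 10902 genes passed edgeR's filter on low counts. Genes were compared by the quasi-likelihood test of edgeR 4.0.16 (R 4.3.3) with Benjamini-Hochberg adjustment over all genes tested. The methods of the study name quantile normalization with a 2-sample statistic that was not run here. Quantile normalization with limma 3.58.1 was an alternative, as were DESeq2 1.42.0, other scalings and filters, and each tumor left out. Transcript and coding lengths came from GENCODE M21.

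The members and the gene lists were chosen with earlier results of these data known. Genes named are the 5 with the smallest p in each direction, the 5 highest per kb of coding length, the 3 lowest by mean CPM, the 3 with the largest coefficient of variation among those tested and a few chosen for their role; of other lists, the gene with the smallest p in a direction. Genes named as not overlapping or as within an interval, Mrps11, Mrpl2, Mrpl15 and Mrps2 were named after their values had been seen. Total counts were between 8468948 and 24441553, so that 3 counts, the floor, are 0.123 to 0.354 CPM. Such floors cover counting error only. An exact permutation test of 3 against 3 tumors cannot give a p below 0.1.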

Additional observations from a re-analysis of the deposited data

How the results depend on the processing

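No member had an adjusted p under 0.05 under any alternative, namely other scalings (RLE, upper-quartile, quantile), DESeq2, limma-voom, other filters, the replicate block or any tumor left out. The count at an unadjusted p under 0.05 stayed at 0, transcripts in place of genes included, except that leaving out a tumor gave 0 to 1. This was Mrpl47 without Control replicate 1 (edgeR, unadjusted p = 0.0366), Mrps11 without Control replicate 3, and Mrpl21 without SS replicate 1 (edgeR, unadjusted p = 0.0437). In these 3 fits 1 of 47, 1 of 50 and 1 of 49 members passed. Over all genes tested, 877 of 11228, 520 of 11342 and 554 of 11240 did. The median log2 fold change ran from -0.093 to 0.025 with a tumor left out, the latter without Control replicate 2. Non-overlapping members numbered 3 of 47 in the report, 2 under upper-quartile or quantile scaling, 6 of 68 without the filter on low counts (11.9% of all genes), and 5 to 11 with a tumor left out, where 21.1% to 25.4% of all genes did not overlap, since fewer tumors are left to overlap. Of 21 named genes tested, 12 kept their direction throughout. Quantile normalization turned Mrpl12 to -0.032, Mrpl34 to 0.12 and Mrps18c to 0.0019, limma-voom turned Mrps18b to 0.11 and Mrps18c to 0.055, and the replicate block turned Mrpl34 to 0.040, Mrps18b to 0.041 and Mrps18c to 0.0048. With a tumor left out, log2 fold changes ran from -0.32 to 0.32 for Mrpl12, -0.23 to 0.16 for Mrpl27, -0.47 to 0.39 for Mrpl34, -0.16 to 0.029 for Mrpl43, -0.042 to 0.20 for Mrpl52, -0.31 to 0.32 for Mrps18b, -0.14 to 0.073 for Mrps18c, -0.44 to 0.24 for Mrps25 and -2.11 to 0.20 for Mrps27, positive only without SS replicate 3. The range was 0.18 to 0.68 for Mrpl46, 0.31 to 0.70 for Mrpl47, -0.85 to -0.43 for Mrpl58, 0.32 to 0.89 for Mrpl49, 0.12 to 0.74 for Mrpl14, -0.75 to -0.24 for Mrpl45, -0.62 to -0.27 for Mrpl1, -1.02 to -0.18 for Mrpl39 and 0.018 to 0.54 for Mrps18a, which kept their direction. The cause of these turns was not tested. Tumors with the same number share only that number (correlations of their deviations 0.021 to 0.12), and with it as a block 0 members passed an unadjusted p under 0.05, with a median of -0.041. Raw totals or RLE scaling moved the difference of summed CPM from -10.5 to -14.9 and -11.0, within 1 SD of the tumors. The depth limits what can be seen in the 22 genes under 1 CPM.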

Other observations

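The lowest tumor of a gene was SS tumor 2 in 13 and SS tumor 3 in another 13 of the 47 mitochondrial ribosomal protein genes tested, or 27.7% each, whereas it was SS tumor 2 in 19.1% and SS tumor 3 in 15.4% of all genes tested. The highest tumor was spread evenly, with 7 to 9 of the 47 genes in each tumor. These shares were not matched for level, as the median was 3.25 CPM in the 47 genes and 14.8 CPM in all genes tested. SS tumor 2 was also the smallest library. The part of level and depth in these shares was not tested. Of the 20 proliferation genes, 18 were tested and 0 passed an unadjusted p under 0.05 in edgeR, with a median log2 fold change of 0.10. Mki67 and the other genes of this list are commonly read as a sign of dividing cells.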
